A study of Arabidopsis thaliana with 12 samples.

Results

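The mitochondrial genome of Arabidopsis thaliana is represented in the count tables by identifiers that start with ATMG. All rows with such identifiers were taken, which gave 152 rows of 37184 annotated genes in the RNA-seq tables and the same 152 in the small RNA tables. RNA-seq was measured in 21-day-old seedlings grown on soil, with 3 libraries of the xrn3-8 mutant and 3 of wild-type Col-0. Small RNA was measured in other seedlings, 14 days old and grown on MS plates, again with 3 xrn3-8 and 3 Col-0 libraries. The design text calls the replicates biological. All samples were total RNA of whole seedlings, so the values average over many cell types. XRN3 is a 5′-to-3′ exoribonuclease of the nucleus, and the title of the series names its part in transcription termination as the question.

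Plant mitochondrial genomes encode a small part of the mitochondrion's own proteins. These are mostly subunits of the respiratory chain and of ATP synthase, proteins for the maturation of cytochrome c, and ribosomal proteins. They also encode ribosomal and transfer RNAs. The organelle's transcripts are made by phage-type RNA polymerases encoded in the nucleus, and are spliced, edited and trimmed by nuclear-encoded proteins imported into the organelle. XRN3 acts in the nucleus, so mitochondrial RNA is not among its textbook substrates. In the RefSeq annotation of the TAIR10.1 assembly the mitochondrial chromosome carries 33 protein-coding genes. Of these, 9 are nad genes of complex I, 1 is cob of complex III, 3 are cox genes of complex IV, 6 are atp genes of ATP synthase, 5 are ccm genes for cytochrome c maturation and 7 encode ribosomal proteins. None of the 152 identifiers appears in that annotation under its ATMG name, so rows are given by identifier, with no gene name, role or length. A read count grows with transcript length, so the ranks below are ranks of counts and not of transcript number.

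Annotated genes held 61604670 to 79845518 counts per RNA-seq library and 5873199 to 7122245 per small RNA library. XRN3 (AT1G75660) stood at 21.7, 20.7 and 19.1 CPM in xrn3-8 and at 48.8, 49.0 and 48.6 CPM in Col-0, where CPM is counts per 1000000 gene counts, with library sizes scaled by TMM factors. Chloroplast rows, with identifiers that start with ATCG, held 52.3% ± 2.23 of gene counts in xrn3-8 and 52.4% ± 0.48 in Col-0 (SD, n = 3 each). Of the 8 root markers examined, only 3 passed the filter on low counts, and PLT1 and PLT2, which define the root stem-cell region, were listed at 0 in all 6 RNA-seq libraries. Over all genes tested, 16% rose in edgeR at an adjusted p under 0.05, a share to be set beside each marker list here. Summed markers of dividing cells stood at 44.0, 49.3 and 46.6 CPM in xrn3-8, against 27.6, 27.1 and 24.7 CPM in Col-0, and 4 of 5 rose. Without any 1 library 3 to 5 of them rose, beside 11.8% to 15.6% of all genes. Summed root markers stood at 10.1, 8.89 and 7.87 CPM in xrn3-8, against 7.91, 6.73 and 6.57 CPM in Col-0. Of the 3 tested, 1 rose, WOX5 (log2 fold change 2.33, adjusted p = 0.0151 in edgeR). WOX5 was near the floor, with 71 counts in all, 0.273 ± 0.0350 CPM in xrn3-8 and 0.0530 ± 0.0391 CPM in Col-0 (SD, n = 3 each). SCR and SHR, with log2 fold changes of 0.42 and 0.03, did not pass the test. COBL9, EXPA7 and CASP1 were under the filter, with 11, 1 and 54 counts in all. Summed markers of flowers stood at 2.50, 1.42 and 2.96 CPM in xrn3-8, against 0.684, 1.24 and 1.64 CPM in Col-0. Of the 4 flower markers tested, 1 rose, PI, with 1.94 ± 0.778 CPM in xrn3-8 and 0.160 ± 0.0493 CPM in Col-0 (SD, n = 3 each, adjusted p = 9.65e-05 in edgeR). The log2 fold changes of AP1 (-1.29), AP3 (-1.77) and SEP3 (-1.31) were below 0 and did not pass the test, AG was under the filter, and the list median was -1.30. The sums overlapped between the genotypes for root and flower markers and not for dividing-cell markers. The part of these differences in the mitochondrial values was not tested. In whole seedlings, more mitochondria-rich cells and more mitochondrial RNA per cell cannot be told apart.

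Mitochondrial rows took a larger share of the RNA-seq counts in every xrn3-8 library than in any Col-0 library. They held 294603, 357413 and 339396 counts in xrn3-8, against 254465, 262716 and 238747 in Col-0. These counts were 0.478%, 0.448% and 0.478% of all annotated-gene counts in xrn3-8 and 0.379%, 0.369% and 0.386% in Col-0. The groups did not overlap. The mean share was 0.468% ± 0.0177 in xrn3-8 and 0.378% ± 0.0087 in Col-0 (SD, n = 3 each), a ratio of 1.24. The exact two-sided permutation p was 0.1, the smallest that this test can give with 3 libraries against 3, so it cannot pass a threshold of 0.05 here.

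Because chloroplast rows fill much of each library, the share was also taken over the remaining counts. Without them the mitochondrial share was 0.998%, 0.985% and 0.959% in xrn3-8, against 0.799%, 0.780% and 0.802% in Col-0. The means were 0.981% ± 0.0199 in xrn3-8 and 0.794% ± 0.0121 in Col-0 (SD, n = 3 each), again a ratio of 1.24 with an exact permutation p of 0.1. Per 100 counts of nuclear genes, mitochondrial rows had 0.990 ± 0.0203 counts in xrn3-8 and 0.800 ± 0.0123 in Col-0. Chloroplast rows gave no such separation, with an exact permutation p of 1 for their own share. A plot of the shares by library shows the gap between the genotypes beside the spread within each.

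**Figure D1:**
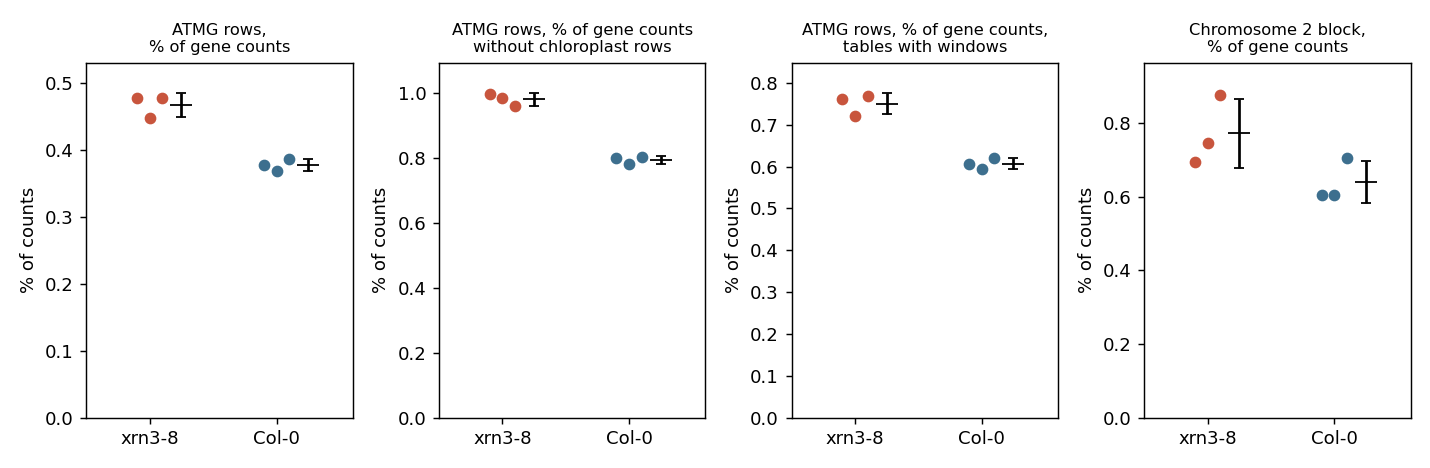
Share of counts held by mitochondrial (ATMG) rows in each RNA-seq library, in % of annotated-gene counts, of those counts without chloroplast rows, and of annotated-gene counts in the second set of tables, with the share of a chromosome 2 block at the right. Points are libraries, with 3 of xrn3-8 at the left and 3 of Col-0 at the right of each panel, and bars are mean ± SD. The xrn3-8 points lie above all Col-0 points in the 3 mitochondrial panels (0.468% against 0.378% on average in the first), while the groups overlap for the block.

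The mitochondrial counts were concentrated in a few rows. Of the 152 rows, 52 had no count in any of the 6 RNA-seq libraries, 100 had at least 1, and 71 were counted in all 6. A mean of 1000 counts or more was reached by 26 rows, while 39 had a mean above 0 but under 10. The highest row, ATMG01360, alone held 32.8% of all mitochondrial counts. The 3 highest rows together held 54.3% and the 10 highest 81.7%. A second set of tables for the same libraries, described below, was less concentrated. There ATMG01360 held 23.1% of mitochondrial counts and the 10 highest rows 71.1%. In that set 12 rows had no count in any library, and 38 rows had a mean of at least 1000 counts.

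ATMG01360 had 1476, 1443 and 1428 CPM in the xrn3-8 libraries, against 1319, 1326 and 1306 CPM in the Col-0 libraries. Every xrn3-8 value was above every Col-0 value, yet the change missed the threshold, with a log2 fold change of 0.14 (SE 0.09) and an adjusted p of 0.268 in edgeR's quasi-likelihood test. Among all annotated genes it ranked 52, 60 and 52 by count in xrn3-8 and 64, 72 and 69 in Col-0. Once chloroplast rows were set aside, these ranks became 9, 7 and 8 in xrn3-8 and 17, 20 and 18 in Col-0. ATMG01360 was thus among the 20 nuclear or mitochondrial rows with the most counts in all 6 libraries.

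ATMG00090, the second row by level, had 603, 586 and 573 CPM in xrn3-8 and 487, 491 and 523 CPM in Col-0. Its groups did not overlap, and its log2 fold change of 0.23 (SE 0.08) had an adjusted p of 0.0552 in edgeR, just above the threshold. It ranked 113, 108 and 110 among all genes in xrn3-8 and 146, 155 and 145 in Col-0. The third row, ATMG00160, had 319, 399 and 379 CPM in xrn3-8 and 326, 348 and 367 CPM in Col-0. Here the groups overlapped and the log2 fold change was 0.08 (SE 0.10). These 3 rows were the mitochondrial rows within the 200 highest genes in each of the 6 libraries. Within the 1000 highest genes there were 14, 11 and 11 mitochondrial rows in xrn3-8, against 10, 10 and 10 in Col-0.

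In the first set of tables the next 7 rows had mean CPM of 118 to 231, against 356 for ATMG00160. The order differed in the second set, where ATMG00160 ranked 2 (696 CPM) and ATMG00090 ranked 3 (535 CPM). There ATMG00070, listed at 0 in the first set, ranked 4 (492 CPM). ATMG00580 had 221, 246 and 220 CPM in xrn3-8 and 244, 224 and 229 CPM in Col-0, and it was the 1 of the 26 rows with a mean of at least 1000 counts whose log2 fold change was below 0 (-0.02, SE 0.08), though not under total counts, where it was 0.13. ATMG00060 had 212, 227 and 224 CPM in xrn3-8, against 185, 200 and 199 CPM in Col-0, with a log2 fold change of 0.18 with an SE of 0.08 (adjusted p = 0.102 in edgeR). Its lowest xrn3-8 value was above its highest Col-0 value. ATMG01190 and ATMG01200 showed the same separation. Their counts moved together, with a ratio of ATMG01200 to ATMG01190 of 0.842 to 0.882 over the 6 libraries. Whether these 2 rows are independent of each other was not tested. ATMG01190 had 202, 187 and 169 CPM in xrn3-8 and 164, 166 and 165 CPM in Col-0, a log2 fold change of 0.17 with an SE of 0.08 (adjusted p = 0.143 in edgeR). ATMG01200 had 175, 161 and 149 CPM in xrn3-8 and 141, 140 and 143 CPM in Col-0, a log2 fold change of 0.19 with an SE of 0.08 (adjusted p = 0.0976 in edgeR). In the remaining rows of the 10 highest the groups overlapped. ATMG01170 had 138, 149 and 138 CPM in xrn3-8 and 141, 133 and 124 CPM in Col-0. ATMG00510 had 164, 130 and 127 CPM in xrn3-8 and 131, 128 and 135 CPM in Col-0, so that its higher mean in the mutant came from replicate 1. ATMG00730 had 137, 120 and 112 CPM in xrn3-8 and 122, 115 and 103 CPM in Col-0. None of these 10 rows passed the threshold.

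**Figure D2:**
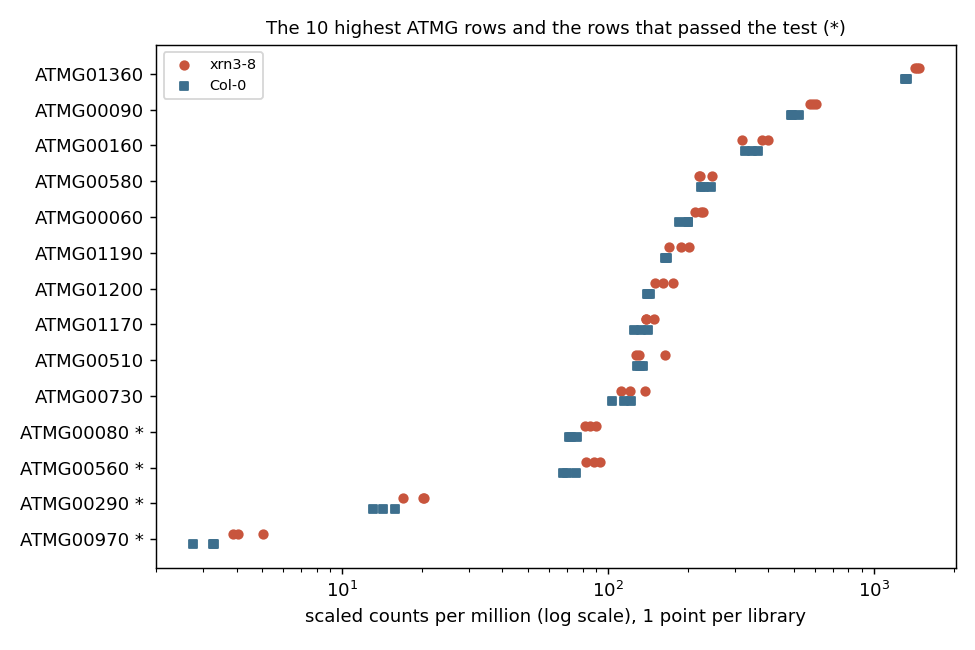
Scaled CPM (log axis) of the 10 mitochondrial rows with the highest mean and of the rows that passed the test, marked with an asterisk. Each point is 1 RNA-seq library, with xrn3-8 as circles above and Col-0 as squares below. ATMG01360 lies at 1428 to 1476 in xrn3-8 and 1306 to 1326 in Col-0, and the shift between the genotypes is small beside the differences in level between rows.

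Few single mitochondrial rows passed the test of xrn3-8 against Col-0, and those that did were higher in xrn3-8. Of the 152 rows, 61 passed the filter on low counts, and 4 of these 61 rose while 0 fell at an adjusted p under 0.05 in edgeR's quasi-likelihood test. Across all 20764 genes tested, 16% rose and 17.3% fell, so the 6.56% of tested mitochondrial rows that rose is below the background for that direction. At an unadjusted p under 0.05, 12 mitochondrial rows (19.7%) were higher and 0 were lower, beside 21.1% higher and 22.1% lower over all genes tested. DESeq2 called 8 higher and 0 lower, beside 16.7% higher and 17.8% lower over all genes.

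The 4 rows that rose ranked 12 (ATMG00080), 13 (ATMG00560), 26 (ATMG00290) and 32 (ATMG00970) among the mitochondrial rows by mean CPM. ATMG00560 had 92.7, 82.3 and 88.5 CPM in xrn3-8, against 69.8, 67.8 and 75.5 CPM in Col-0, a log2 fold change of 0.31 with an SE of 0.08 (adjusted p = 0.0143 in edgeR). ATMG00290 had 20.0, 20.2 and 16.9 CPM in xrn3-8, against 15.8, 14.3 and 13.0 CPM in Col-0, a log2 fold change of 0.41 with an SE of 0.10 (adjusted p = 0.0121 in edgeR). In both rows the lowest mutant library was above the highest wild-type library. ATMG00970, with 260, 313 and 397 counts in xrn3-8 and 176, 218 and 193 in Col-0, had 4.04, 3.88 and 5.04 CPM in xrn3-8 and 2.73, 3.30 and 3.26 CPM in Col-0. Its log2 fold change was 0.48 with an SE of 0.16 (adjusted p = 0.0376 in edgeR). ATMG00080 had 90.3, 85.4 and 81.5 CPM in xrn3-8, against 72.5, 71.0 and 76.1 CPM in Col-0, a log2 fold change of 0.23 with an SE of 0.08 (adjusted p = 0.0409 in edgeR). The groups did not overlap in either row. Over the reported setting and its 14 alternatives, ATMG00290 passed the threshold in 13 of 15 settings, ATMG00560 in 12, ATMG00970 in 9 and ATMG00080 in 5. Without Col-0 replicate 2 or Col-0 replicate 3, 1 row was called higher in each case, beside 13.1% and 11.8% of all genes. Without Col-0 replicate 1, 2 rows were called, beside 12.6% of all genes, and without xrn3-8 replicate 2 there were 8, beside 15.6% of all genes.

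The direction was shared by most rows. Of the 61 tested rows, 49 had a log2 fold change above 0 and 12 below it, and the smallest unadjusted p among those 12 was 0.143. The median was 0.19, beside 0.01 over all genes tested. Among the 26 rows with a mean of at least 1000 counts, 25 were above 0 (all but ATMG00580), the range was -0.02 to 0.48 and the median 0.19, with a median SE of 0.09. The other 35 tested rows spread from -0.89 for ATMG00100 to 1.43 for ATMG09450, with a median SE of 0.39, so single values among them are uncertain. ATMG00100 had 101, 32 and 131 counts in xrn3-8 and 43, 195 and 183 in Col-0. ATMG09450 had 64, 39 and 20 counts in xrn3-8 and 31, 3 and 6 in Col-0. Both overlapped between the groups. Every xrn3-8 CPM was above every Col-0 CPM in 17 of 61 tested rows, or 27.9%, beside 24.2% of all genes tested, and the reverse held in 1 row, beside 23.9%. The plot of change against level shows most rows with many counts just above 0.

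**Figure D3:**
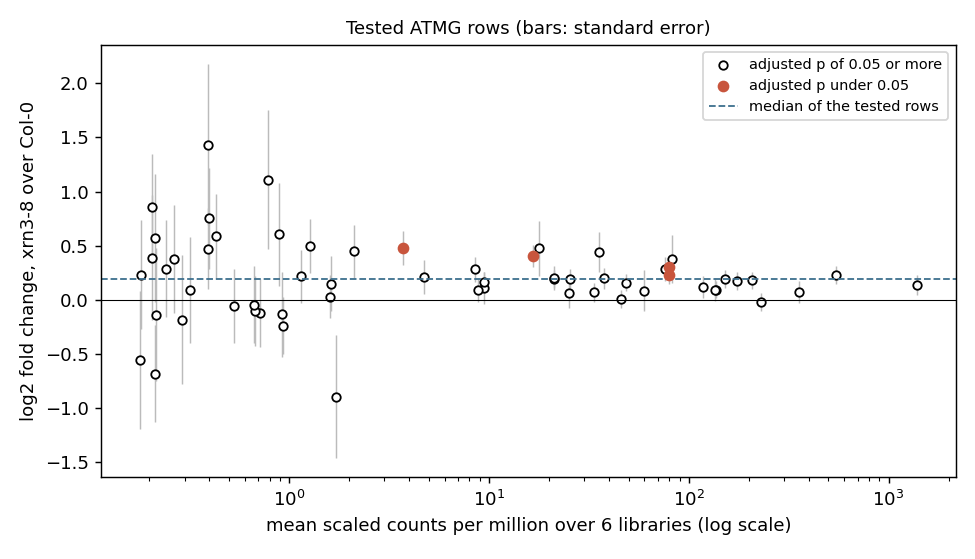
Log2 fold change of xrn3-8 over Col-0 for the 61 tested mitochondrial rows against their mean scaled CPM (log axis). Bars are standard errors, filled points have an adjusted p under 0.05 and the dashed line is the median of 0.19. Rows of high level lie close to that median, and rows of low level spread widely with long bars.

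The size of this change depends on the scaling. When libraries were scaled by total gene counts and not by TMM, the median over all genes tested moved to 0.16 and that of the mitochondrial rows to 0.34. On that scale 20 of 61 rows rose while 0 fell, beside 26.3% of all genes that rose and 10.7% that fell. Relative to the median of all genes, the mitochondrial median was 0.19 higher under TMM and 0.18 higher under total counts. The ratio of 1.24 in the share of counts is on the total-count scale. When each library was scaled to its own sum of mitochondrial counts, so that only the make-up within the mitochondrial rows was compared, the median of all genes moved to -0.15. In that comparison edgeR called 0 of 61 mitochondrial rows, while 9.99% of all genes rose and 28.3% fell, and 1 row, ATMG00290, had an unadjusted p under 0.05 (log2 fold change 0.25, adjusted p = 0.0773). ATMG01360 held 32.2%, 32.6% and 33.2% of mitochondrial counts in xrn3-8, against 33.4%, 33.4% and 32.4% in Col-0, and its groups overlapped.

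In a few rows xrn3-8 replicate 1 stood apart from the other libraries. ATMG00020 had 137 CPM in that library, against 70.9 and 71.3 CPM in the other xrn3-8 libraries and 62.9, 71.0 and 81.0 CPM in Col-0. ATMG01390 had 31.3 CPM there, against 16.6 and 14.3 CPM in the other xrn3-8 libraries and 11.9, 16.8 and 15.9 CPM in Col-0. ATMG00520 had 57.0 CPM there, against 31.2 and 34.7 CPM in the other xrn3-8 libraries and 29.2, 28.3 and 32.6 CPM in Col-0. ATMG00020, ATMG01390 and ATMG00520 were chosen after their values were seen. None of them passed the threshold, with edgeR adjusted p-values of 0.219, 0.173 and 0.0931. The mitochondrial share of counts did not rest on that library, since the other 2 xrn3-8 libraries also lay above all Col-0 libraries and the difference without it was 0.0850 percentage points, beside 0.0901 with it.

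The counts of mitochondrial rows differed between the 2 sets of RNA-seq tables that were deposited for the same libraries. One set lists annotated genes with 9585 assembled loci, and the values above come from it. The other lists the same genes with 33985 windows named after genes. None of the windows is named after a mitochondrial row, so windows beside mitochondrial genes could not be examined. Mitochondrial rows held 1.62 to 1.64 times as many counts in the tables with windows, while the factor was 1.03 for nuclear rows in each library and 1 for chloroplast rows. Of the 152 rows, 106 had a higher mean count there and 0 a lower one.

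Of the 52 mitochondrial rows without a count in the tables with assembled loci, 40 had counts in the tables with windows, or 76.9%. Among nuclear rows the same was seen for 521 of 10185, or 5.12%. ATMG00070 was listed at 0 in all 6 libraries of the first set. In the second it had 34320, 44351 and 40347 counts in xrn3-8 and 29077, 30852 and 29238 in Col-0, which made it the row with the fourth-highest mean. ATMG00650 was likewise at 0 in the first set, and had 12124, 15292 and 14512 counts in xrn3-8 and 11472, 11973 and 10626 in Col-0 in the second. ATMG00480 had a mean of 8 counts in the first set and 6010 in the second. A 0 in the first set thus does not show that a transcript was missing. The tally of reads that overlap several features ran from 2149454 to 2965315 per library in the first set and from 1068371 to 1585575 in the second, and the part of this tally in the mitochondrial difference was not tested.

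**Figure D4:**
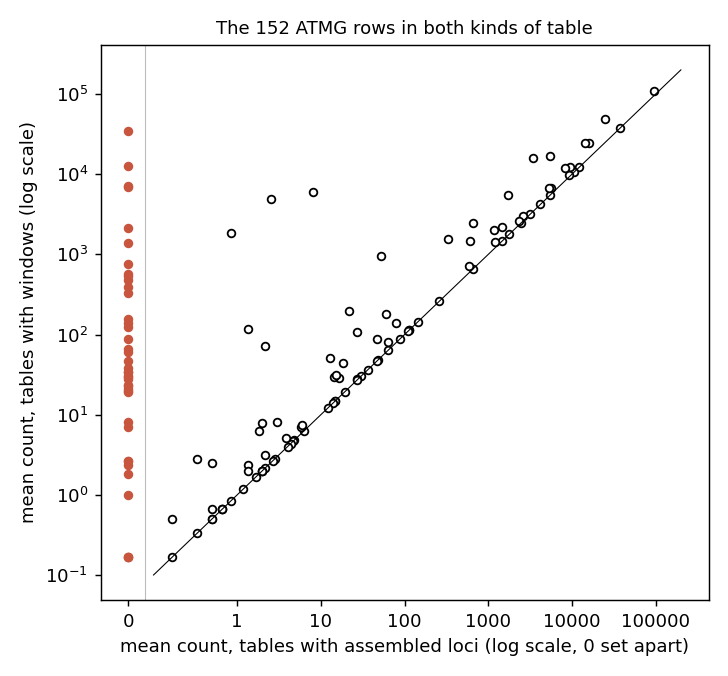
Mean count of each mitochondrial row over the 6 RNA-seq libraries in the tables with assembled loci (x axis) and in the tables with windows (y axis), both on log axes. Filled points at the left are rows listed at 0 in the first set, 40 in number, and the line marks equal counts. No row lies below the line, and ATMG00070 is the highest filled point.

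The comparison of genotypes gave the same share ratio in the second set. There the mitochondrial rows held 0.762%, 0.721% and 0.768% of gene counts in xrn3-8, against 0.606%, 0.594% and 0.620% in Col-0. The means were 0.750% ± 0.0256 in xrn3-8 and 0.606% ± 0.0130 in Col-0 (SD, n = 3 each), a ratio of 1.24 with an exact permutation p of 0.1. In that set 97 mitochondrial rows could be tested, 36 of them in that set alone, and 4 rose while 0 fell in edgeR, or 4.12%, beside 15.9% of all genes that rose and 17.2% that fell. ATMG00560, ATMG00290 and ATMG00970 were called in both sets. The fourth was ATMG01370, listed at 0 in the first set, with 143, 191 and 182 counts in xrn3-8 and 74, 65 and 92 in Col-0. Its log2 fold change was 0.91 with an SE of 0.22 (adjusted p = 0.00887 in edgeR). The order of levels moved more than the share did, since 6 of the 10 highest rows were the same in both sets. ATMG01360 was the highest in each.

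Chromosome 2 of the Col-0 reference carries a large inserted copy of the mitochondrial genome near its centromere, so reads of mitochondrial transcripts can match both places. The sources used here do not say how the RNA-seq mapping treated reads with several positions. The tally of reads that were not unique held 9.80% to 11.2% of reads. That tally was not added to the counts of any mitochondrial or block row, so levels, ranks and zeros here are without it. A block of 165 rows between AT2G07742 and AT2G07766, chosen from the order of genes in RefSeq after the data had been seen, stands for that copy here. It held 428080, 594474 and 622495 counts in xrn3-8 and 407241, 431257 and 435797 in Col-0, more than the mitochondrial rows in every library of the first set of tables. In the second set this held in 5 of the 6 libraries, while xrn3-8 replicate 1 had 477561 mitochondrial and 457750 block counts. Its share was 0.695%, 0.745% and 0.877% in xrn3-8, against 0.606%, 0.606% and 0.705% in Col-0. The groups overlapped, and the exact permutation p was 0.2. AT2G07671, the row of the block with the most counts, had 129746, 237357 and 288581 counts in xrn3-8 and 140392, 156222 and 194231 in Col-0. Without it the block held 0.467% ± 0.0187 in xrn3-8 and 0.391% ± 0.0054 in Col-0 (SD, n = 3 each, exact permutation p = 0.1). Mitochondrial rows and block together held 1.24% ± 0.10 of gene counts in xrn3-8 and 1.02% ± 0.0649 in Col-0, a ratio of 1.22. How many reads of the block came from mitochondrial transcripts was not tested.

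Small RNA over mitochondrial rows cannot be described from the gene tables. All 152 rows were listed at 0 in all 6 small RNA libraries, so no level, rank or change exists for them there. All chloroplast rows were listed at 0 as well, whereas 31876 of 36899 nuclear rows had small RNA counts. The sources used here do not say whether the organelle chromosomes were part of the small RNA mapping, and no upper limit is drawn from these values. Reads outside the annotated genes made up 67.1% to 71.2% of the tallied small RNA reads. The chromosome 2 block did hold small RNA, with 35040, 29932 and 23643 counts in xrn3-8 and 37564, 46532 and 46897 in Col-0. That was 0.492%, 0.476% and 0.338% of gene counts in xrn3-8 and 0.640%, 0.711% and 0.705% in Col-0, without overlap (exact permutation p = 0.1). Row AT2G07706 of the block alone had 8999, 6301 and 1457 of these counts in xrn3-8 and 7883, 13258 and 16181 in Col-0. The share without that row was not taken. The tally of small RNA reads that were not unique was 0 in every library, and how reads that match several places were assigned was not tested. Small RNA of XRN3 itself fills part of the xrn3-8 libraries. With that gene out of the denominator the block held 0.477% ± 0.0880 in xrn3-8 and 0.685% ± 0.0395 in Col-0 (SD, n = 3 each).

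Nuclear genes that serve the mitochondrion are described by 3 lists, to be read beside the 16% of all genes tested that rose and the 17.3% that fell. Of 20 nuclear genes for subunits of the respiratory chain and ATP synthase, 1 rose and 4 fell at an adjusted p under 0.05 in edgeR, with a median log2 fold change of -0.10, while under total counts 3 rose, 0 fell and the median was 0.06. Under total counts 26.3% of all genes rose and 10.7% fell. SDH1-1, the flavoprotein subunit of succinate dehydrogenase, had 67.7, 57.1 and 64.9 CPM in xrn3-8, against 51.5, 45.9 and 40.7 CPM in Col-0, a log2 fold change of 0.46 with an SE of 0.10 (adjusted p = 0.00583 in edgeR). ATP3, the gamma subunit of mitochondrial ATP synthase, averaged 143 ± 9.62 CPM in xrn3-8 and 171 ± 6.77 CPM in Col-0 (SD, n = 3 each), a log2 fold change of -0.26 with an SE of 0.08 (adjusted p = 0.0297 in edgeR). The others that fell were COX5B-1 of complex IV (AT3G15640, -0.35), GAMMA CA1 of complex I (-0.28) and SDH2-2 of complex II (-0.25). Leaving out any 1 of the 6 libraries brought the number that fell to between 1 and 3, beside 13.3% to 16.5% of all genes.

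Of 20 nuclear factors for mitochondrial RNA and DNA, 3 rose and 0 fell in edgeR, with a median log2 fold change of 0.10. The number that rose is near the share of 16% over all genes. PMH2, a mitochondrial RNA helicase of the DEAD-box family, had 14.2, 11.2 and 10.4 CPM in xrn3-8, against 5.62, 5.58 and 5.56 CPM in Col-0, a log2 fold change of 1.09 with an SE of 0.13 (adjusted p = 0.000106 in edgeR). Its relative PMH1 had 6.25, 4.95 and 4.99 CPM in xrn3-8, against 2.80, 1.80 and 2.82 CPM in Col-0, a log2 fold change of 1.13 with an SE of 0.19 (adjusted p = 0.00128 in edgeR). In both, every mutant library was well above every wild-type library. NMAT2 (AT5G46920), a nuclear-encoded maturase for mitochondrial introns, averaged 13.8 ± 0.0936 CPM in xrn3-8 and 11.2 ± 0.0625 CPM in Col-0 (SD, n = 3 each), a log2 fold change of 0.30 with an SE of 0.08 (adjusted p = 0.0147 in edgeR). The mitochondrial RNA polymerase RPOTM (AT1G68990) averaged 18.5 ± 0.497 CPM in xrn3-8 and 19.1 ± 2.63 CPM in Col-0, and its log2 fold change of -0.04 (SE 0.10) did not pass the test. With total counts 7 of the 20 rose, beside 26.3% of all genes.

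Of 9 genes known to be induced when mitochondria are disturbed, or to control that response, 0 rose and 3 fell in edgeR, beside 16% and 17.3% of all genes, with a median log2 fold change of -0.36. AOX1A, the stress-induced alternative oxidase, had 59.8, 43.2 and 48.2 CPM in xrn3-8, against 75.5, 61.2 and 80.8 CPM in Col-0, a log2 fold change of -0.53 with an SE of 0.13 (adjusted p = 0.0111 in edgeR). NDB2, an alternative NADH dehydrogenase, had 39.9, 29.9 and 35.2 CPM in xrn3-8, against 62.8, 54.4 and 61.2 CPM in Col-0, a log2 fold change of -0.76 with an SE of 0.11 (adjusted p = 0.000398 in edgeR). DIC1, a dicarboxylate carrier of the inner membrane, averaged 41.2 ± 10.8 CPM in xrn3-8 and 73.7 ± 9.49 CPM in Col-0 (SD, n = 3 each), a log2 fold change of -0.84 with an SE of 0.17 (adjusted p = 0.00381 in edgeR). The groups did not overlap in any of these 3 genes. NAC017, a transcription factor that controls AOX1A, averaged 49.3 ± 3.53 CPM in xrn3-8 and 50.1 ± 2.39 CPM in Col-0, and its log2 fold change of -0.02 did not pass the test. With total counts 2 of the 9 fell, beside 10.7% of all genes. Without xrn3-8 replicate 1, 5 fell, beside 16.5% of all genes. Without any other single library 2 or 3 fell, beside 13.3% to 16.3% of all genes. The plot of the lists beside the mitochondrial rows shows these directions.

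**Figure D5:**
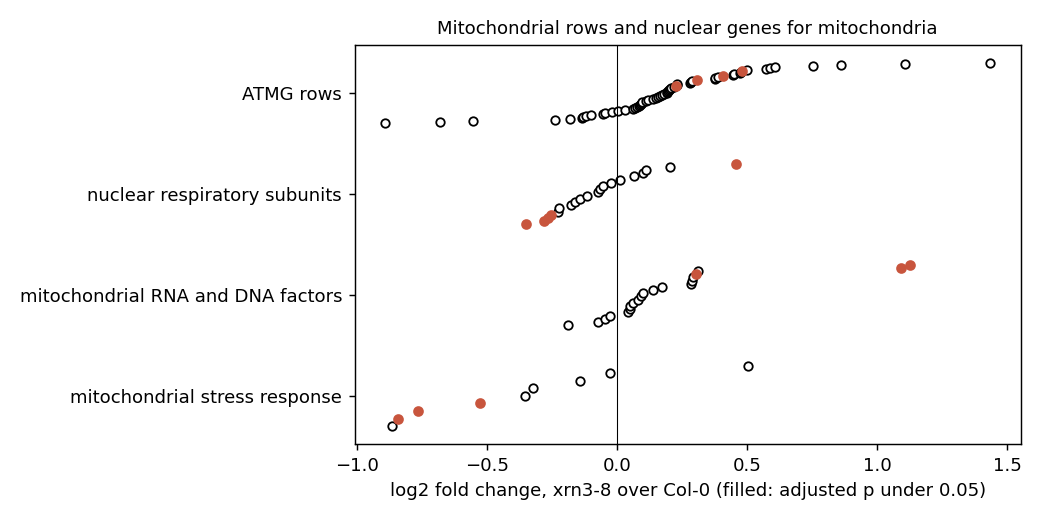
Log2 fold change of xrn3-8 over Col-0 for the 61 tested mitochondrial rows and for 3 lists of nuclear genes for mitochondria, with 20, 20 and 9 tested members. Each point is 1 gene, filled where the adjusted p was under 0.05. Most mitochondrial rows lie slightly above 0, PMH1 and PMH2 stand at the right of their list, and the filled points of the stress list lie at the left.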

How the data were processed

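The tables deposited by the authors hold whole-number read counts per gene, not normalized, for each library. HISAT2 with HTSeq is named for RNA-seq and Bowtie with HTSeq for small RNA, with TAIR10 as the build, per the submitters' processing notes. The sources used here give no versions, settings or use of strand, and reads of overlapping genes, antisense partners or near-identical copies cannot be separated. Tallies of unassigned reads (22.6% to 26.1% of RNA-seq reads, 74.6% to 77.1% of small RNA reads) and assembled loci stayed out of library sizes and tests.

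Counts of annotated genes were fitted together with edgeR 4.0.16 (R 4.3.3) and its quasi-likelihood test, two-sided, without a replicate block, with TMM factors, filterByExpr at a minimum count of 10, Benjamini-Hochberg adjustment over all genes tested and a threshold of 0.05. The fit was tested on simulated data with changes larger than the median of the mitochondrial rows. That test does not show how well shifts of the mitochondrial size are found. Standard errors are the log2 fold change divided by the square root of F. DESeq2 1.42.0 was an alternative. Shares were compared with exact permutation tests (scipy 1.17.1). The 2 assays used different plants and were not combined.

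Rows named are the 10 of highest mean CPM and those past the threshold, with exceptions said to be chosen after their values were seen. The rows, lists and tests were chosen with earlier results of these data known. Names of nuclear genes came from RefSeq (TAIR10.1) or textbook use. No sequences are printed, since no source used here gives them for these rows.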

Additional observations from a re-analysis of the deposited data

How the results depend on the processing

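The share of mitochondrial rows kept its direction, with an exact permutation p of 0.1, when assembled loci or all tallied reads entered the denominator, without ATMG01360, with the second set of tables and with the chromosome 2 block added (the last 2 chosen after seeing the data). Without any 1 library the difference was 0.0850 to 0.10 percentage points. Against 4 called rows in the reported fit, there were 20 with total counts, 8 with DESeq2, 2 with assembled loci included, 0 with scaling to the mitochondrial sum, and 1 to 8 without any 1 library. There were 5 with nuclear scaling, 4 without a filter and 4 in the second set. No row was called lower in any of these. The share of all genes called higher was 20.6% with assembled loci included, 16.5% with nuclear scaling and 13.3% without a filter, each above the 3.28%, 8.20% and 4% of mitochondrial rows tested there. Calls over the 3 nuclear lists, of 20, 20 and 9 genes, numbered 11 with both directions together, and 7 to 12 without any 1 library. Over all genes tested, 16% rose and 17.3% fell in the reported fit. Without any 1 library, 11.8% to 15.6% of all genes rose and 13.3% to 16.5% fell. The cause of these differences between settings was not tested. Of 196 alternative values of the 14 named rows, 153 kept direction and side of the threshold, 11 passed it newly, 21 no longer passed and 11 changed sign, these in rows that passed in neither setting. With scaling to the mitochondrial sum the log2 fold change was -0.017 for ATMG01360, -0.075 for ATMG00160, -0.060 for ATMG01170, -0.062 for ATMG00510 and -0.039 for ATMG00730. For ATMG00580 it was 0.13 with total counts, 0.035 in the second set and -0.063 to 0.020 without any 1 library. For ATMG00510 it was -0.031 to 0.17 without any 1 library, the lowest without xrn3-8 replicate 1. Same-numbered xrn3-8 and Col-0 libraries deviated together with correlations of 0.056, 0.18 and 0.14, not all above 0.1, so the numbers were not taken as pairs. Each library correlated best with its own number, and a replicate block gave 6 rows higher (9.84%) and 0 lower, beside 16.5% and 18.7% of all genes. The planned tests of small RNA and of windows were not run, since those mitochondrial rows are all at 0 or not listed. Depth limits the rows with few counts, whose standard errors are wide.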
